A study of Homo sapiens with 96 samples.

Results

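Steroid-converting enzymes turn weak or inactive steroids into active hormones and back again, and 9 genes of this kind were followed in LAPC4 cells: STS, SRD5A1, SRD5A3, HSD17B4, HSD17B6, HSD17B11, AKR1C1, AKR1C2 and AKR1C3. They were chosen by symbol, and for each the listed probe with the highest mean over all arrays was used. Of 9 genes, 8 had a listed probe and 6 passed the filter on dim probes, out of 20046 genes with a listed probe and 18571 past the filter in the whole series. SRD5A3 had no listed probe and was not analysed here. AKR1C1 and AKR1C3 did not pass the filter.

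LAPC4 is an established human prostate cancer cell line with an androgen receptor, and it was the one line studied, grown in medium that contained serum. Cells were exposed for 6 h in 30 groups. In 28 groups a chemical was given together with 0.33 nM of R1881, a synthetic androgen, 1 group had R1881 alone, and 1 had the solvent DMSO alone, and all 30 groups had 0.05% DMSO. R1881 alone and DMSO had 6 arrays each and every chemical had 3. Dihydrotestosterone, Trenbolone, Testosterone propionate, Norethindrone and MethylTestosterone were given at 0.5 uM. Androstenedione, Progesterone, Dexamethasone, Mifepristone and Triticonazole were given at 10 uM. Apigenin, Atrazine, Bicalutamide, BisphenolA, Cyproterone acetate, DDE, Dehydroepiandrosterone, Fenitrothion, Finasteride, Flutamide, Hydroxyflutamide, Iprodione, Linuron, Prochloraz, Procymidone, Spironolactone, Tebuconazole and Vinclozolin were given at 20 uM. No chemical was given without R1881, so each was set against R1881 alone. The 6 arrays of each control carry the numbers 1, 2, 3, 1b, 2b and 3b. Whether the b arrays came from separate cultures is not stated, so all p-values measure array spread, part of which may be technical.

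Androgens reach their receptor by several enzymatic routes. Steroid sulfatase (STS) frees dehydroepiandrosterone from its sulfate, and further steps through androstenedione and testosterone, which AKR1C3 can form, end with a reductase such as SRD5A1, which makes dihydrotestosterone. AKR1C2 inactivates dihydrotestosterone to a diol, HSD17B6 can oxidise that diol back, and HSD17B11 oxidises it further to a weak androgen. HSD17B4 inactivates estradiol and is best known as an enzyme of fatty acid oxidation in peroxisomes, AKR1C1 inactivates progesterone, and SRD5A3 also serves dolichol synthesis. Finasteride is a drug against the steroid reductases, and Dehydroepiandrosterone and Androstenedione are substrates of this pathway.

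Promoter sequences were looked up for the members to set beside the R1881 comparison, and 8 of 9 genes matched, with 13 entries. The sequences are RefSeq's on GRCh38.p14, each from 250 bases before to 50 bases after a gene's start. HSD17B6 had no entry. The window of HSD17B11 is shown because it was the member with the largest difference between R1881 and DMSO, and those of AKR1C1 and AKR1C2 because the genes are close copies. HSD17B11 lies at chr4:87391139-87391438 (minus strand), AKR1C1 at chr10:4963165-4963464 (plus strand) and AKR1C2 at chr10:5003808-5004107 (minus strand), and each is written 5′ to 3′ on the gene's strand.
HSD17B11: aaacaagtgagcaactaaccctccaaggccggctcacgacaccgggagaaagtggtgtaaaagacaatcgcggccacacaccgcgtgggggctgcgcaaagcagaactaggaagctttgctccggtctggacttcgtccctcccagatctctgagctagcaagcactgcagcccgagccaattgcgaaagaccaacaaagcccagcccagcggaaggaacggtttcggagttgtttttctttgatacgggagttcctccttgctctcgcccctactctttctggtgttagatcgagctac
AKR1C1: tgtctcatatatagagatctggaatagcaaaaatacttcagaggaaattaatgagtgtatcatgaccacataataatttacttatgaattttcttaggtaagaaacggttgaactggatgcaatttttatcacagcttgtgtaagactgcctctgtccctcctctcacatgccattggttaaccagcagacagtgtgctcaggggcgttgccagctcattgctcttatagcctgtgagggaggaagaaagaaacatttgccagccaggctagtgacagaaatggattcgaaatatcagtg
AKR1C2: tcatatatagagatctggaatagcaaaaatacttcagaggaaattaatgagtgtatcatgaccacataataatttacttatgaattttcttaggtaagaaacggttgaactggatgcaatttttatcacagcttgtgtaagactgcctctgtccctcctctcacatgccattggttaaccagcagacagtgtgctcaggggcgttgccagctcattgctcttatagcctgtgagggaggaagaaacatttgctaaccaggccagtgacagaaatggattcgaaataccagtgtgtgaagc
Capitals would mark a match to any of the motifs searched on both strands, and these windows held none. The motifs were AGAACA, 1 arm of the androgen and glucocorticoid receptor element, the full element, which is AGAACA followed after 3 bases of any kind by its reverse complement TGTTCT and so contains the arm, and the antioxidant response element core TGACNNNGC. Of the 13 entries, 0 held the full element, 2 held the arm and 2 held the antioxidant core, against 0.00285%, 14.8% and 13.3% of all 35116 windows of this length. The arms lay in 2 of the 5 STS windows, and the antioxidant cores in another STS window and in that of SRD5A3. A missing match says only that these letters are not in the window. The windows of AKR1C1 and AKR1C2 were identical at 264 of 296 aligned bases (89.2%), while that of AKR1C3 matched AKR1C1 at 48% or 54% in its 2 entries, and whether their array probes tell AKR1C1 and AKR1C2 apart was not tested.

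Values are log2 intensities, and a probe counts as dim when it lies near or below the median of its array, which was 6.72 in all arrays. HSD17B4 was the member farthest above this range, at a mean of 10.21 over 96 arrays (96.1th percentile of 48107 probes), and it was above the array's median in 96 of 96 arrays. SRD5A1 averaged 8.25 (85.6th percentile) and was also above the median in all 96. STS averaged 7.13 and was above it in 74 arrays, HSD17B11 averaged 7.08 and was above it in 91, and HSD17B6 averaged 6.95 and was above it in 87. The AKR1C genes lay in the dim range. AKR1C2 averaged 6.69 over all arrays and exceeded the array's median in 9, AKR1C1 averaged 6.55 and exceeded it in 2, and AKR1C3 averaged 6.53 and exceeded it in 0. In dim probes a change of the RNA may leave the signal as it is, so small values for these 3 genes say little. Arrays read RNA from all cells of a well, so a change in every cell and a change in some of the cells cannot be told apart.

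The arrays also differed in ways that their labels do not give. By overall profile, 34 arrays fell into cluster A and 62 into cluster B, and no member was among the 1000 genes that set the clusters. Of the 62 arrays in cluster B, 6 stood apart, with a correlation under 0.9 to the median profile of the closer cluster. They were Trenbolone 2 (0.50), Spironolactone 2 (0.60), Flutamide 3 (0.68), MethylTestosterone 2 (0.82), Testosterone propionate 2 (0.85) and Apigenin 2 (0.87). The mean of 8 measured of 10 luminal prostate markers was 7.32 in Trenbolone 2 and 7.36 in Spironolactone 2, against a median of 9.16 over all arrays. FOXA1, TMPRSS2, HOXB13 and SPDEF were above the 90th percentile, whereas KLK3, the prostate-specific antigen, was at the 59.0th. Above the 90th were 0 of 4 basal, 1 of 5 stromal (ACTA2), 0 of 4 leukocyte, 0 of 4 neuroendocrine and 0 of 3 liver markers. In what follows the reduced fit is the model without these 6 arrays and with the cluster as a term, which was chosen with the data known. The androgen response was read from genes outside the family. UGT2B11, of the UGT2B glucuronosyltransferase family, averaged 8.48 ± 0.17 with R1881 and 6.79 ± 0.07 with DMSO (SD, n = 6 each), a rise of 1.70 (limma, adjusted p = 8.78e-20). SGK1 rose by 2.88 and FKBP5 by 1.90.

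In nearly every group 5 members differed between the array clusters, which is described before the treatments. STS, the sulfatase gene, ranged in cluster B over 6.57, 7.22 and 9.68 (lowest, median and highest of 62 arrays) and in cluster A over 6.55, 6.68 and 6.80 (34 arrays). The lowest and highest values in cluster B were of Flutamide 3 and MethylTestosterone 2, which stand apart, and every array of cluster A lay at the dim end of the STS range. In the 25 groups that held both clusters after the 6 arrays were left out, STS was higher in cluster B in 25 of 25, with a median difference of 0.58 on the log2 scale. SRD5A1 was higher in cluster B in 23 of 25 groups (median 0.16). HSD17B11, HSD17B6 and HSD17B4 were lower in cluster B in 25 of 25, with medians of -0.23, -0.18 and -0.22. AKR1C2 differed by 0.01 and AKR1C3 by -0.00, and AKR1C1 by 0.05. The clusters were drawn from the expression values of these same arrays. The share of all genes that differ between the clusters in this way was not counted. The labels' numbers were unequally spread over the clusters, with 11, 0 and 23 arrays numbered 1, 2 and 3 in cluster A and 21, 32 and 9 in cluster B. The labels give no batch for the arrays, and what the clusters are was not tested.

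**Figure D1:**
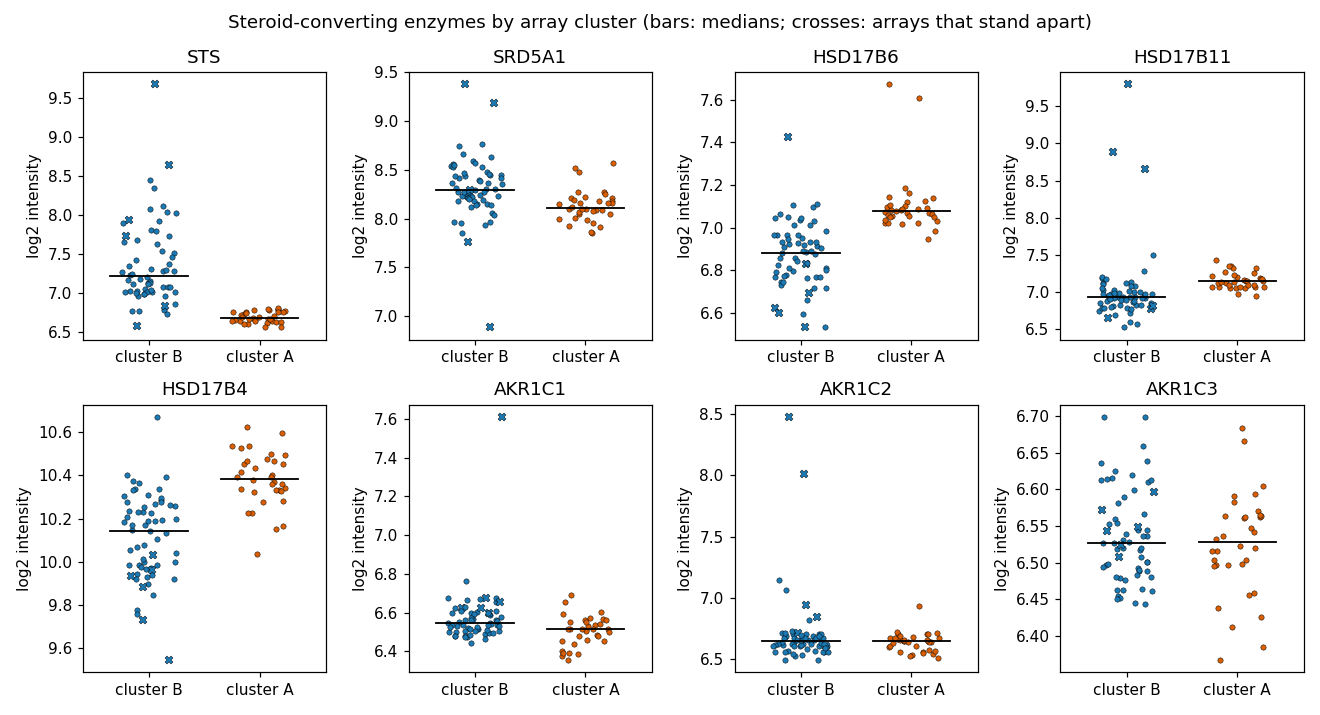
Log2 intensity (y axis) of the 8 measured members in all 96 arrays, cluster B left and cluster A right; bars are medians and crosses the 6 arrays that stand apart. STS reached 9.68 in cluster B, in MethylTestosterone 2, which stands apart, and at most 6.80 in cluster A.

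R1881 against DMSO asks whether the androgen itself changed the enzymes within 6 h. Of the 6 members tested 0 were called at adjusted p under 0.05, against a background of 0.124% of all genes tested (23 of 18571), and 0 had an unadjusted p under 0.05, against 1.34%. All 6 were higher with R1881, with a median difference of 0.10, where the median of all genes was -0.00. HSD17B11, the diol oxidase, had the largest difference. It measured 6.97, 7.23 and 7.44 with R1881 and 6.60, 6.94 and 7.07 with DMSO (lowest, median and highest of 6 arrays each). The 2 ranges overlapped only between 6.97 and 7.07.

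The HSD17B11 difference was 0.29 (SE 0.23, 95% interval -0.17 to 0.76, adjusted p = 1.00). Within cluster A, R1881 gave 7.33 and 7.44 and DMSO 6.95 and 7.07. Within cluster B, R1881 gave 4 values from 6.97 to 7.28 and DMSO 4 values from 6.60 to 6.95. In each cluster every R1881 array was thus above every DMSO array. The share of all genes that separate in this way was not counted, and HSD17B11 was picked for its large difference. An exact two-sided permutation test over the 12 arrays gave p = 0.0152. With arrays exchanged only within clusters the exact test gave p = 0.00476, the smallest value that its 420 arrangements can give. HSD17B11 was 1 of 8 members tested in this way. Both exact tests treat same-numbered control arrays as independent, which is not known. If each number were 1 unit, an exact test of 3 against 3 could give no p below 0.1. In the reduced fit the SE was 0.08 and the limma adjusted p = 0.0515, which does not pass the threshold, where 0.985% of all genes were called. When each of the 12 control arrays was left out of that fit, the difference lay between 0.25 and 0.32 and the adjusted p between 0.0367 and 0.233, with a call in 4 of 12. The adjusted p was 1.00 in that fit when control arrays of the same number were averaged. The other 2 probes of HSD17B11, which are dimmer, differed by 0.02 and 0.00, so the difference was seen by 1 of 3 probes.

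HSD17B4 measured 10.10, 10.29 and 10.62 with R1881 and 9.93, 10.18 and 10.28 with DMSO, a difference of 0.19 (SE 0.13, adjusted p = 1.00). Its ranges overlapped, and the exact test gave p = 0.0996 over all arrays and p = 0.0381 within clusters. SRD5A1 measured 8.0, 8.22 and 8.56 with R1881 and 7.85, 8.14 and 8.35 with DMSO, which differed by 0.15 (95% interval -0.18 to 0.48). STS differed by 0.06, HSD17B6 by 0.06 and AKR1C2 by 0.03, each with an interval across 0. The dim AKR1C1 and AKR1C3 differed by 0.03 and 0.04, within their spread (exact test, p = 0.643 and 0.234).

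Dehydroepiandrosterone, Androstenedione and Finasteride were the 3 chemicals that bear most directly on the pathway. None of them moved a member past the threshold: 0 of 6 members were called in each, against a background of 0.0269%, 0% and 0.0269% of all genes in the same order, that is 5, 0 and 5 genes. By unadjusted p under 0.05 the members also gave 0 in each, beside 0.824%, 0.366% and 0.765% of all genes. The androgen readout did move in 2 of the 3. UGT2B11 changed by -1.63 with Dehydroepiandrosterone (adjusted p = 1.83e-14) and by -1.56 with Finasteride (adjusted p = 1.33e-13), both given at 20 uM, while it differed by -0.19 with Androstenedione at 10 uM (adjusted p = 1.00). FKBP5 changed by -1.49 and -1.41 with Dehydroepiandrosterone and Finasteride (adjusted p = 0.00565 and 0.0177). SGK1 changed by -1.91 and -1.73 in the same order and was not called (adjusted p = 0.068 and 0.363).

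**Figure D2:**
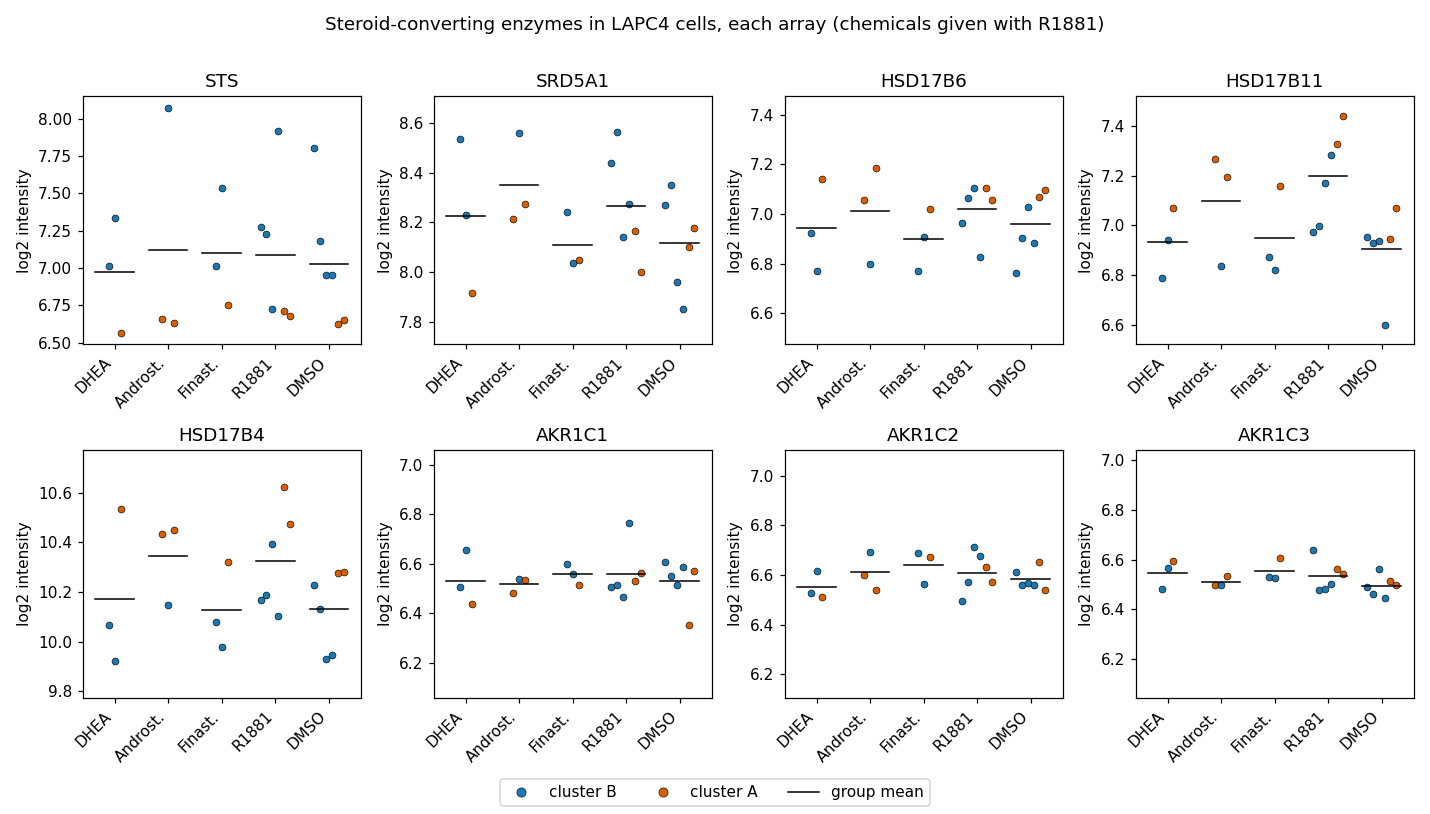
Log2 intensity (y axis) of the 8 measured members in each array of Dehydroepiandrosterone (DHEA), Androstenedione (Androst.) and Finasteride (Finast.), each given with R1881, and of R1881 alone and DMSO; bars are group means and colours the array cluster. The chemicals' arrays overlap those of R1881 alone for all 8 genes, and HSD17B11 sits lower with DMSO than with R1881.

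SRD5A1 encodes the steroid reductase that Finasteride inhibits less well than SRD5A2. It measured 8.24, 8.04 and 8.05 with Finasteride (arrays 1, 2 and 3), against 8.0, 8.22 and 8.56 with R1881 alone (lowest, median and highest of 6). The 3 Finasteride arrays lay inside the R1881 range, and the difference was -0.16 (SE 0.20, 95% interval -0.56 to 0.25, adjusted p = 1.00). With Dehydroepiandrosterone SRD5A1 measured 8.54, 8.23 and 7.91 and with Androstenedione 8.22, 8.56 and 8.27, differences of -0.04 (interval -0.44 to 0.37) and 0.09 (interval -0.32 to 0.49).

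STS, which supplies dehydroepiandrosterone from its sulfate, measured 7.01, 7.34 and 6.56 with Dehydroepiandrosterone, 6.66, 8.07 and 6.63 with Androstenedione, 7.01, 7.54 and 6.75 with Finasteride, and 6.68, 6.98 and 7.92 with R1881 alone (lowest, median and highest). Arrays of cluster A gave the low values in every one of these groups. The differences from R1881 were -0.12 (interval -0.94 to 0.71), 0.03 (-0.79 to 0.86) and 0.01 (-0.81 to 0.83), so STS was the least precisely measured member. With the cluster as a term and the 6 arrays left out the intervals narrowed, to -0.25 to 0.76 for Androstenedione, and still held 0.

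HSD17B11 measured 6.79, 6.94 and 7.07 with Dehydroepiandrosterone, 7.27, 6.84 and 7.19 with Androstenedione and 6.87, 6.82 and 7.16 with Finasteride, against the R1881 range of 6.97 to 7.44. The differences were -0.27 (SE 0.28), -0.10 (SE 0.28) and -0.25 (SE 0.28), none past the threshold. In the reduced fit, which called 0.237%, 0.0431% and 0.264% of all genes with these chemicals and 0 of 6 members with each, they were -0.27 (unadjusted p = 0.00885, adjusted p = 0.737), -0.18 (unadjusted p = 0.0728) and -0.25 (unadjusted p = 0.0138, adjusted p = 0.836). HSD17B4 measured 10.07, 9.92 and 10.53 with Dehydroepiandrosterone, 10.43, 10.15 and 10.45 with Androstenedione and 10.08, 9.98 and 10.32 with Finasteride, against 10.10 to 10.62 with R1881. Its differences were -0.15, 0.02 and -0.20. HSD17B6, which can regenerate dihydrotestosterone, differed by -0.08, -0.01 and -0.12, and AKR1C2, which removes it, by -0.06, 0.00 and 0.03.

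Chemicals given at the same dose were also set against each other in 3 pairs. Dehydroepiandrosterone and Finasteride (20 uM) differed in 0 of 6 members, as did Androstenedione and Progesterone (10 uM), which share a ring system and differ in its side group (a ketone and an acetyl group), and Dihydrotestosterone and MethylTestosterone (0.5 uM), of which the second carries an added methyl group and a ring double bond. The background was 0.00538%, 0.0108% and 0.00538% of all genes. For Dehydroepiandrosterone minus Finasteride the difference was 0.12 for SRD5A1 (interval -0.35 to 0.59) and -0.02 for HSD17B11 (interval -0.67 to 0.64). For Androstenedione minus Progesterone it was 0.33 for HSD17B4 (interval -0.02 to 0.69) and 0.16 in the reduced fit. For Dihydrotestosterone minus MethylTestosterone it was -0.43 for AKR1C2 (unadjusted p = 0.0361, adjusted p = 1.00) and 0.03 in the reduced fit, since MethylTestosterone 2 read 8.01 where the other 5 arrays of the pair lay between 6.56 and 6.68. Intervals of this width do not show that the paired compounds act alike.

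Over all 28 chemicals and both controls, the moderated F test over the 30 groups called 0 of 6 members, beside 1.21% of all genes, and 0 of 6 had an unadjusted p under 0.05, beside 5.21%. When groups were ordered by their median, all 29 neighbouring pairs overlapped in each of the 8 measured members, as neighbours in such an order mostly will. Without the 6 arrays, the groups that did not overlap R1881 alone were Spironolactone and Testosterone propionate for HSD17B6, Testosterone propionate for HSD17B11, Spironolactone for STS and Flutamide for AKR1C3, each with 2 arrays left. The share of all genes without such overlap was not counted, and 2 arrays can fall outside a range by chance. Both Spironolactone arrays left lie in cluster A, where STS read 6.55 to 6.80. Both Testosterone propionate arrays left lie in cluster B, where HSD17B6 and HSD17B11 were lower. HSD17B4 ran from a median of 9.89 with Apigenin to 10.43 with Androstenedione, SRD5A1 from 7.93 with Procymidone to 8.55 with Trenbolone, and STS from 6.66 with Androstenedione to 7.46 with MethylTestosterone. HSD17B11 ran from 6.66 with Apigenin to 7.35 with Trenbolone and HSD17B6 from 6.72 with Testosterone propionate to 7.61 with Spironolactone. AKR1C2 ran from 6.53 to 6.72, AKR1C1 from 6.48 to 6.60 and AKR1C3 from 6.45 to 6.62. These medians are of all arrays. Without the 6 arrays HSD17B4 was lowest with Fenitrothion (9.98), SRD5A1 highest with Spironolactone (8.54) and STS highest with Tebuconazole (7.24). HSD17B11 and HSD17B6 kept the same lowest and highest groups.

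**Figure D3:**
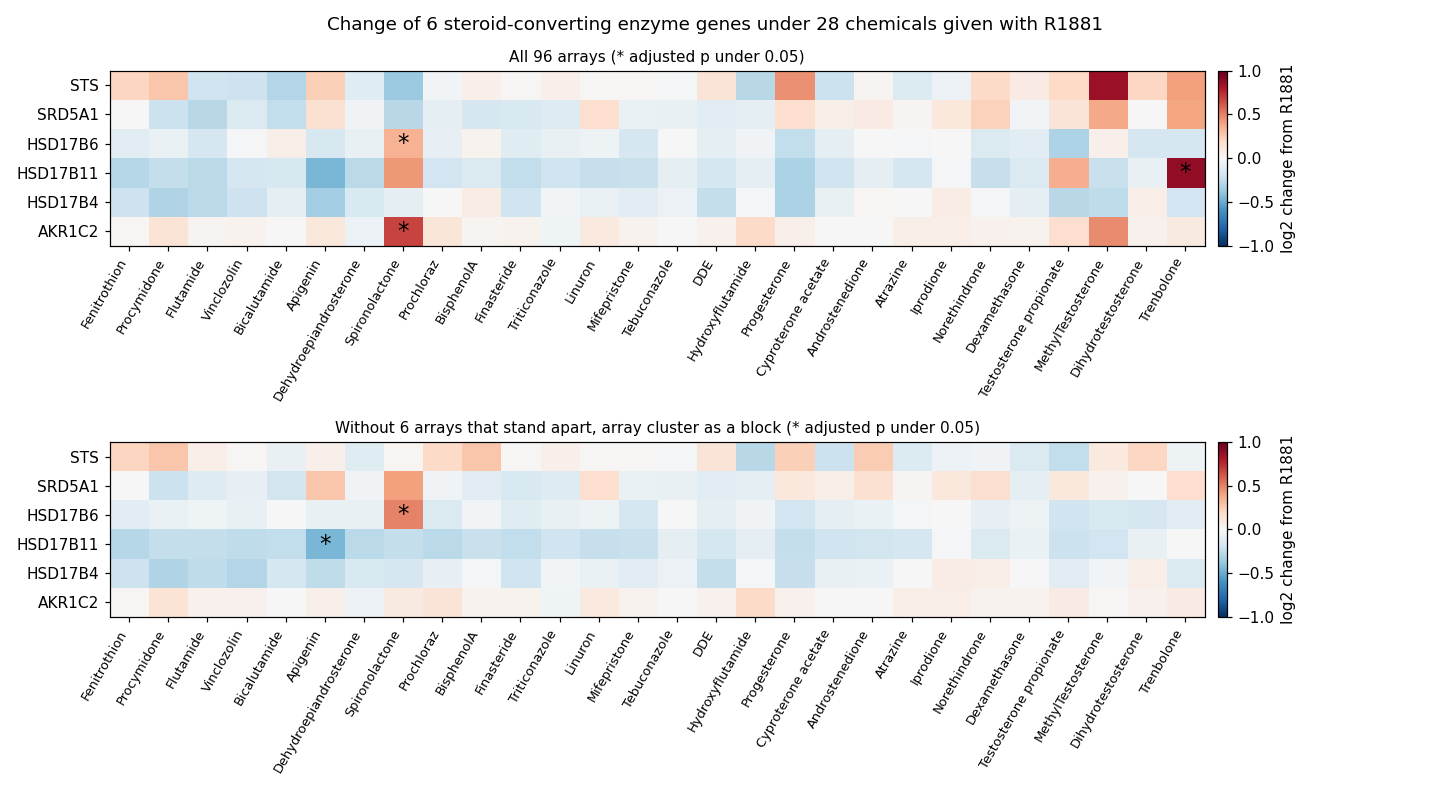
Log2 change from R1881 alone (colour, -1 to 1) of the 6 tested members (rows) under each of 28 chemicals given with R1881 (columns, ordered from low to high UGT2B11 level in the reduced fit); stars mark adjusted p under 0.05. With all 96 arrays the stars are AKR1C2 and HSD17B6 under Spironolactone and HSD17B11 under Trenbolone; in the reduced fit they are HSD17B6 under Spironolactone and HSD17B11 under Apigenin, and HSD17B11 is below R1881 in all 28 columns.

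For the 25 chemicals other than Dehydroepiandrosterone, Androstenedione and Finasteride, limma called a member 3 times, beside 1.23% of all tests of genes in these comparisons. All 3 calls fell in Spironolactone and Trenbolone, where 17.7% and 10.2% of all genes were called, and each of these groups held an array that stands apart. AKR1C2 rose with Spironolactone by 0.68 (SE 0.18, adjusted p = 0.00374). Its 3 arrays measured 6.66, 8.48 and 6.72, against 6.49 to 6.71 with R1881 alone. Only Spironolactone 2 was high, and without it the difference was 0.08 and was not called (adjusted p = 0.999). Of the 5 other AKR1C2 probes, 1 was called (0.23, adjusted p = 0.0183) and 4 differed by at most 0.04. The called probe read 6.67, 7.30 and 6.65 in the 3 Spironolactone arrays, so it too was high only in Spironolactone 2. Without the 6 arrays and with the cluster as a term it differed by 0.04.

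HSD17B11 rose with Trenbolone by 0.89 (SE 0.28, adjusted p = 0.0343), with 7.35, 9.80 and 7.12 in the 3 Trenbolone arrays, against 6.97 to 7.44 with R1881 alone. The high value was Trenbolone 2, and without it the difference was 0.03 (adjusted p = 1.00). Leaving out R1881 array 1, 2 or 1b also ended the call (adjusted p of 0.0596, 0.053 and 0.0568), with differences of 0.84, 0.88 and 0.85. HSD17B11 was also high in Testosterone propionate 2 (8.89) and Spironolactone 2 (8.66), which stand apart as well, while its other probes read 6.69 and 6.64 in Trenbolone 2. AKR1C1 likewise read 7.61 in Trenbolone 2 and at most 6.76 in every other array, and was called in the fit with no filter (0.32, adjusted p = 0.0301), where 9.09% of all genes were. The mean of the 8 luminal markers was 7.32 in Trenbolone 2, against 9.27 and 9.61 in the other Trenbolone arrays, and 7.36 in Spironolactone 2, against 8.45 and 8.48 in the other Spironolactone arrays and 9.13 to 9.66 with R1881 alone. The mean of 3 liver markers was 7.50 in Trenbolone 2, against 6.88 and 6.93. It was 7.18 in Spironolactone 2, against 7.15 and 7.12 in the other Spironolactone arrays and 6.82 to 6.94 with R1881 alone. The highest liver mean of the series was 7.88, in another group. Stromal markers averaged 6.87 in Trenbolone 2, against 7.27 and 7.42, and 6.96 in Spironolactone 2, against 7.15 and 7.16. In the same order neuroendocrine markers averaged 6.68, against 7.05 and 7.24, and 7.34, against 7.28 and 7.29. Basal markers averaged 6.72, against 6.76 and 7.15, and 7.14, against 6.69 and 6.70. Leukocyte markers averaged 6.93, against 6.72 and 6.84, and 6.89, against 6.80 and 6.72. The part of these differences in the AKR1C2, HSD17B11 and AKR1C1 results was not tested.

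HSD17B6 rose with Spironolactone, and the difference was larger without the array that stands apart. Its Spironolactone arrays measured 7.67, 6.83 and 7.61, against 6.83, 7.06 and 7.11 with R1881 alone (lowest, median and highest of 6). Arrays 1 and 3 were above all other arrays of the series, and array 2, which stands apart, was within the R1881 range. Marker means of arrays 1 and 3 also lay outside the R1881 range, at 8.45 and 8.48 against 9.13 to 9.66 for luminal markers and 7.15 and 7.12 against 6.82 to 6.94 for liver markers. Basal markers averaged 6.69 and 6.70 against 6.81 to 7.14, and stromal markers 7.15 and 7.16 against 7.29 to 7.54. Their part in the HSD17B6 result was not tested. With all arrays the difference was 0.35 (SE 0.13, adjusted p = 0.0465). That call was lost without Spironolactone 1 (0.20, adjusted p = 0.365) or 3 (0.23, adjusted p = 0.275). It was also lost without R1881 array 1, 1b, 2b or 3b (adjusted p of 0.0743, 0.0539, 0.102 and 0.0522), with differences of 0.34, 0.36, 0.31 and 0.36. Without the 6 arrays the difference was 0.62 (SE 0.12, adjusted p = 0.000195), beside 4.69% of all genes called. Both remaining Spironolactone arrays lie in cluster A, where R1881 alone read 7.06 and 7.11. With the cluster as a term the difference was 0.50 (SE 0.09, adjusted p = 4.69e-05), a 1.41-fold change, beside 8.74% of all genes called in that comparison. It stayed between 0.47 and 0.53 when each of the 8 arrays of the comparison was left out of the reduced fit, with an adjusted p of at most 0.0129. That fit holds 2 Spironolactone arrays, so leaving out either leaves 1, which is assumed to vary like the other groups. With control arrays of the same number averaged it was 0.50 (adjusted p = 0.000459), and the share of all genes called there was not counted. In the reduced fit HSD17B6 was the member called by the F test (adjusted p = 0.0226), beside 5.24% of all genes. HSD17B6 has 1 listed probe, so no second probe could be compared.

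**Figure D4:**
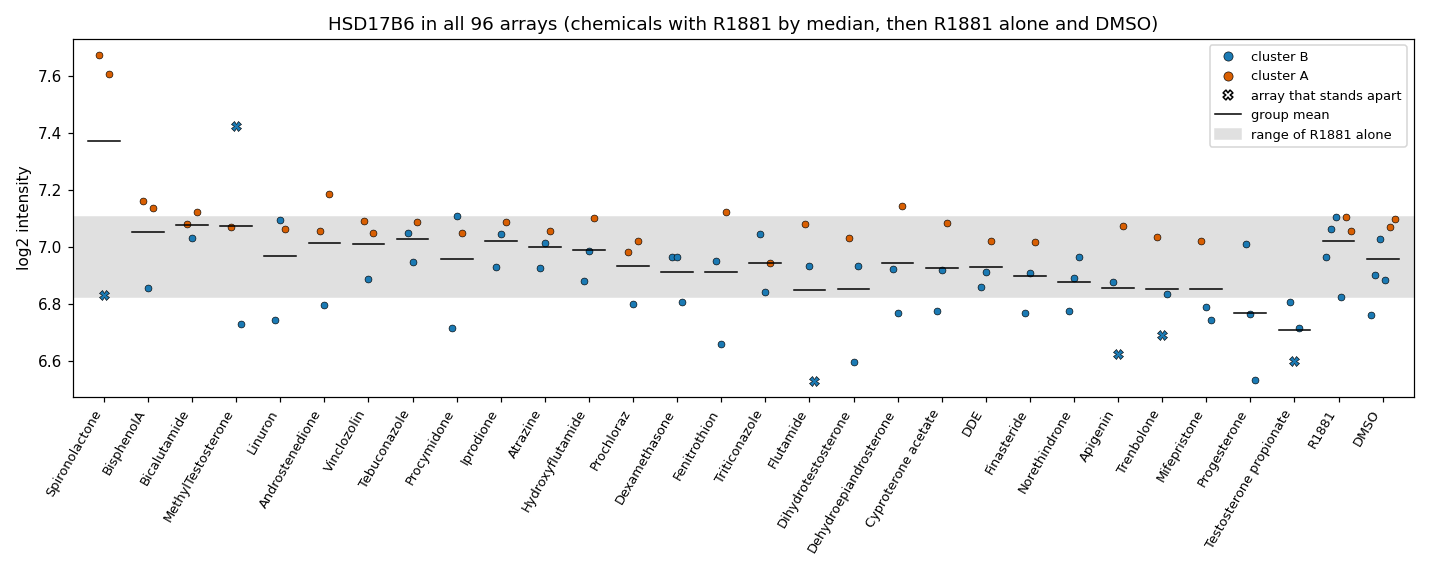
Log2 intensity of HSD17B6 (y axis) in all 96 arrays, with chemicals given with R1881 ordered by median, then R1881 alone and DMSO; the grey band is the range of R1881 alone, bars are group means and crosses the arrays that stand apart. Spironolactone arrays 1 and 3 (7.67 and 7.61) are above every other array, and Spironolactone 2 is at 6.83.

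Without the 6 arrays HSD17B6 was also outside the R1881 range with Testosterone propionate, at 6.81 and 6.72 against 6.83 to 7.11, a difference of -0.20 in the reduced fit (adjusted p = 0.804). With array weights, which down-weight variable arrays, it was -0.31 and was called (adjusted p = 0.0144). The share of all genes called with array weights was not counted, for this and the later comparisons. The genes whose group means followed HSD17B6 most closely over the 30 groups of the reduced fit were NPTX2, CTSV and OPN3, with Pearson's r of 0.86, 0.86 and 0.86. Without the Spironolactone group the values were 0.33, 0.62 and 0.11, lowest for NPTX2 and OPN3. These genes were named after their values were seen. Among the other members, Spironolactone in the reduced fit gave SRD5A1 a difference of 0.41 (adjusted p = 0.052, arrays 8.51 and 8.57), where all arrays gave -0.27 and array weights 0.31 (adjusted p = 0.00975). The reduced fit gave HSD17B11 -0.24 (adjusted p = 0.264), HSD17B4 -0.17, AKR1C2 0.09 and STS 0.02.

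In the reduced fit HSD17B11 was the member with the most uniform direction. With all arrays it was lower than R1881 alone in 25 of 28 chemicals, with a median difference of -0.18, while AKR1C2 was higher in 25 of 28. In the reduced fit HSD17B11 was lower in 28 of 28, with a median of -0.22, as were 0.765% of all genes (142 of 18571). HSD17B4 and HSD17B6 were each lower in 25 of 28 there, and AKR1C2 was higher in 25. All of these comparisons share the same 6 R1881 arrays, so the R1881 mean enters every sign, and R1881 alone had the highest of the 30 group levels in that fit. Adjusted for the cluster, HSD17B11 stood at 7.36 with R1881 alone, 7.35 with Trenbolone and 7.35 with Iprodione at the top, and at 7.07 with Fenitrothion, 7.07 with DMSO and 6.90 with Apigenin at the bottom. Dehydroepiandrosterone (7.09) and Finasteride (7.11) lay near the lower end and Androstenedione (7.18) in the middle. Over the 30 group levels HSD17B11 correlated with UGT2B11 at r = 0.72 in the reduced fit and 0.38 with all arrays. In the same order HSD17B4 gave 0.64 and 0.29, and SRD5A1 gave 0.31 and 0.67. AKR1C2, HSD17B6 and STS gave 0.04, -0.21 and -0.21 in the reduced fit, and 0.09, -0.18 and 0.44 with all arrays. These points share the array clusters and the control arrays, and the share of all genes with such an r was not counted.

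**Figure D5:**
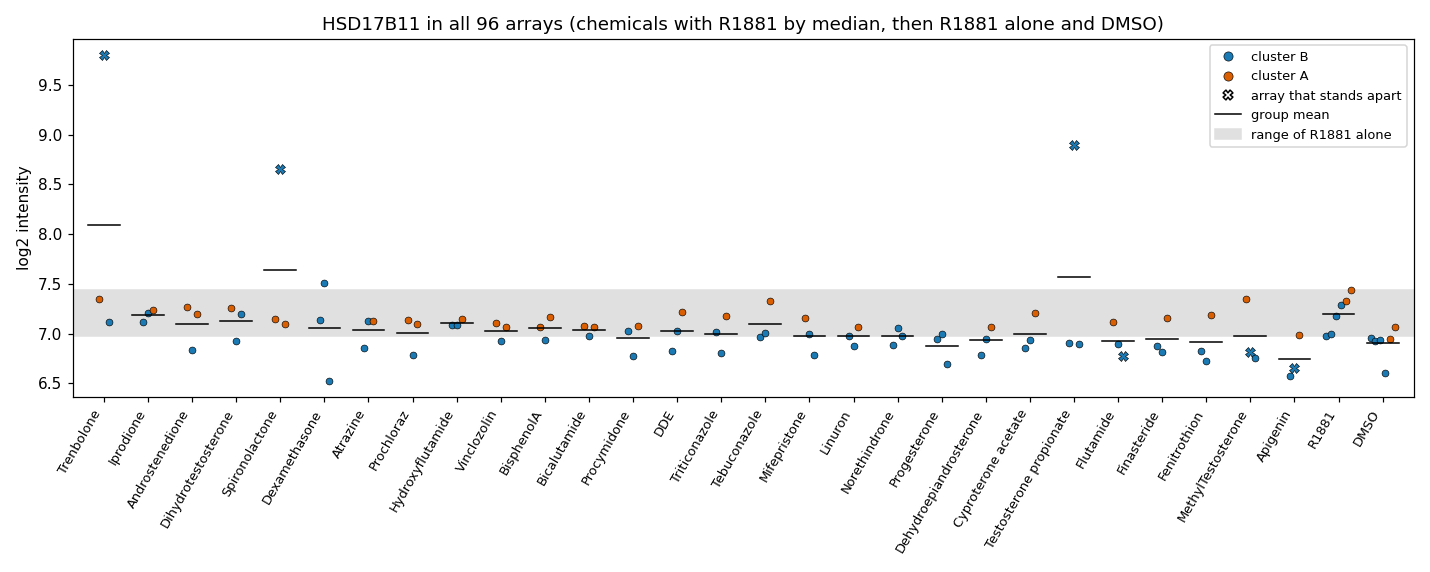
Log2 intensity of HSD17B11 (y axis) in all 96 arrays, ordered and marked as for HSD17B6. The values of 8.66 to 9.80 are 3 arrays that stand apart (Trenbolone 2, Testosterone propionate 2 and Spironolactone 2), and all other arrays lie between 6.53 and 7.51.

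Apigenin, a plant flavonoid, was the chemical with the lowest HSD17B11. Its arrays measured 6.58, 6.66 and 6.98, against 6.97 to 7.44 with R1881 alone. In each cluster the Apigenin arrays were below the R1881 arrays. They read 6.58 and 6.66 against 6.97 to 7.28 in cluster B, and 6.98 against 7.33 and 7.44 in cluster A. The value of 6.66 was of Apigenin 2, which stands apart. Without it cluster B held only Apigenin 1 and cluster A only Apigenin 3. How many of all genes separate like this was not counted. The difference was -0.46 with all arrays (SE 0.28, adjusted p = 0.718) and -0.46 in the reduced fit (SE 0.11, adjusted p = 0.00483), where 6.66% of all genes were called (1.41% with all arrays). The other 2 probes of HSD17B11 differed by -0.04 and 0.08 there, so this too was seen by 1 of 3 probes. HSD17B4 differed by -0.34 with all arrays (adjusted p = 0.423) and by -0.26 in the reduced fit (adjusted p = 0.248). With array weights HSD17B4 differed by -0.39 and was called (adjusted p = 0.0194), and the share of all genes called there was not counted. UGT2B11 fell by 1.44 with Apigenin (adjusted p = 7.24e-13).

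The other genes of the pathway were taken from a list of 42 further steroid-converting enzymes and their partners, of which 40 had a listed probe and 37 passed the filter. By mean intensity, 7 of the 40 were above the 90th percentile of all probes, 16 between the 50th and the 90th and 17 at or below the 50th. The bile acid and steroid reductase AKR1D1 (97.9th percentile), the electron carrier CYB5A (97.8th) and HSD17B12 (97.4th), which elongates fatty acids, were among the bright ones. HSD3B1 and HSD3B2, which turn dehydroepiandrosterone into androstenedione, lay at the 29.3th and 26.0th percentiles, HSD17B3, the testicular testosterone-forming enzyme, at the 31.2th, and SRD5A2, the main target of Finasteride, at the 50.5th.

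With R1881 against DMSO and under Dehydroepiandrosterone, Androstenedione and Finasteride, 0 of the 37 were called in either direction, and their median differences were -0.00, -0.01, -0.01 and -0.02. Calls came in Spironolactone (5 higher, 2 lower), where 17.7% of all genes were called, and Trenbolone (4 higher, 2 lower), where 10.2% were. PAPSS2, which makes the sulfate donor for steroid sulfation, rose by 1.62 with Spironolactone (adjusted p = 0.000687), CYP3A5, a steroid hydroxylase, by 0.76 (adjusted p = 0.00107), SULT2A1, the sulfotransferase of dehydroepiandrosterone, by 1.35 (adjusted p = 0.00192) and AKR1C4, the liver member of the AKR1C family, by 0.63 (adjusted p = 0.00366). With Trenbolone the estrogen sulfotransferase SULT1E1 rose by 0.56 (adjusted p = 0.0119) and SRD5A2 by 1.07 (adjusted p = 0.027). In the reduced fit none of these 6 was called, and there were 2 calls of 37 with Spironolactone and 2 of 37 with Apigenin, all higher, beside 8.74% and 6.66% of all genes, so these shares were not above the background. HSD17B8, which takes part in mitochondrial fatty acid synthesis, rose by 0.67 with Spironolactone (adjusted p = 0.000898), against 0.91 with all arrays (adjusted p = 0.00719), and by 0.56 with Apigenin (adjusted p = 0.00749). SUMF1, which activates sulfatases such as the STS protein, rose by 0.48 (adjusted p = 0.000824) and by 0.35 (adjusted p = 0.0222).

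Genes that neighbour the members in other pathways were read in the same way. Of 10 peroxisomal fatty acid oxidation partners of HSD17B4 that were tested, the reduced fit called 2 with Spironolactone and 3 with Apigenin, beside 8.74% and 6.66% of all genes, which is also the background for the lists that follow. The oxidase ACOX3 changed by -0.87 (adjusted p = 1.28e-07) and by -0.56 (adjusted p = 0.000583), and the thiolase ACAA1 rose by 0.95 (adjusted p = 0.00511) and by 0.89 (adjusted p = 0.0105), while the transporter ABCD3 fell by 0.44 with Apigenin (adjusted p = 0.0396). Of 15 targets of NRF2, the oxidative stress factor known to raise AKR1C genes, 1 was called in that fit: SRXN1 fell by 0.61 with Spironolactone (adjusted p = 0.00599). Of 10 dolichol pathway partners of SRD5A3, DOLPP1 fell by 0.82 (adjusted p = 0.0012) and DPM3 rose by 0.54 (adjusted p = 0.0316), both with Spironolactone. With all arrays 3 NRF2 targets, 1 peroxisomal gene and 1 dolichol gene were called, all under Spironolactone or Trenbolone, and no list had a call under R1881, Dehydroepiandrosterone, Androstenedione or Finasteride.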

How the data were processed

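RNA of 96 LAPC4 samples was read on human HT-12 v4 bead arrays. The series' design text names iScan 3.3.28 for scanning, and the submitters' processing notes list limma. Values deposited by the authors were log2 intensities, judged from their range of 6.3157 to 14.152, and had been normalised between arrays by the authors, judged from array medians of 6.7211 to 6.7212; how background was corrected was not stated. They were used as deposited. Of 48107 probes, 30113 had 1 gene symbol in the platform annotation. Probes above their array's median in at least 3 arrays were kept (43820), and the brightest listed probe stood for each of 18571 genes. Members' probes had 0 missing values.

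Groups were taken from the sample titles. limma 3.58.1 (R 4.3.3) fitted 1 mean per group over all 96 arrays, and p-values were adjusted by Benjamini-Hochberg over all genes of a comparison (threshold 0.05). All adjusted p-values are limma's. The reduced fit leaves out 6 arrays and adds 2 array clusters as a term. Clusters were found by partitioning around medoids on correlations between arrays over 1000 genes, chosen by their deviations from group medians. The correlations used log2 intensities with group differences left in, so the clusters may hold part of the treatments' effects. Exact permutation tests compared R1881 with DMSO, two-sided. Data were also simulated for that comparison over 18571 genes. Of genes changed by 0.5 on the log2 scale 48 of 100 were recovered, and of genes changed by 1 75 of 100, with 4 other genes called. The simulated noise was independent between arrays, with no clusters and no arrays that stand apart, unlike the data. The recovered shares need not hold for the measured arrays. The number of arrays limits the precision.

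The labels' replicate numbers were tested for pairing by the correlation of same-numbered deviations. In R1881 against DMSO these were 0.72, 0.72 and 0.89, and all 3 were also over 0.1 for Dehydroepiandrosterone, Finasteride and Apigenin, but not for Androstenedione, Spironolactone and Trenbolone. Of the 10 closest of 114 pairs of arrays within groups, 5 were same-numbered control arrays, and 0 arrays were identical.

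The members and gene lists were chosen with earlier results of these data known. All 9 members are named, and of other lists at most 4 called genes, by smallest adjusted p. Normalisation, filter, probe, array weights, replicate block and arrays left out were varied.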

Additional observations from a re-analysis of the deposited data

Results flagged for a closer look

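Of 16 sets of 6 control arrays (8 members in R1881 alone and in DMSO), 3 had 1 array far from the others. HSD17B11 read 6.60 in DMSO 2b, where the nearest other DMSO array read 6.93, and without it R1881 exceeded DMSO by 0.23 in place of 0.29. AKR1C1 read 6.76 in R1881 2b, where the nearest read 6.56, and 6.35 in DMSO 3, where the nearest read 6.51, both near the array median of 6.72 or below it. Chance alone gives such a gap in about 1 in 20 sets.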

How the results depend on the processing

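Of 372 recomputed counts of members called, 362 stayed within 1.5 times the reported count. The F test called 4 members with array weights, in place of 0. It called 1 in the reduced fit and 1 in the reduced fit with same-numbered control arrays averaged. The share of all genes called with array weights, averaged controls, the replicate block or cyclic loess was not counted. Calls in these settings therefore cannot be set against a background. Calls over the other 25 chemicals, 3 as reported, became 6 with array weights (HSD17B11 and HSD17B4 under Apigenin, SRD5A1 under Bicalutamide, HSD17B6 and SRD5A1 under Spironolactone and HSD17B6 under Testosterone propionate), 1 without the 6 arrays, 1 with same-numbered controls averaged and 0 when groups were fitted alone, and leaving out 1 array gave 1 (without R1881 1 or 1b) to 5 (without MethylTestosterone 1). Leaving out 1 array of all 96 gave 0 to 0 calls for the F test, for R1881 against DMSO, for Dehydroepiandrosterone, Androstenedione and Finasteride, and for the matched-dose pairs. With the replicate block the count over the other chemicals was 3 (adjusted p of 0.00278 for AKR1C2, 0.0341 for HSD17B6 and 0.0277 for HSD17B11), and it changed no other call. Of 620 values of single members, 588 kept their side of the threshold and 28 lost the call. Of 550 values of members not called as reported, 56 had the other sign and 0 of these 56 were called. Among called results the 4 that reversed were HSD17B11 under Trenbolone (-0.033 with another probe, -0.00603 in the reduced fit and -0.0064 there with controls averaged) and AKR1C2 under Spironolactone (-0.0018 with another probe). The causes were not tested beyond the arrays and probes named. Cyclic loess ended the call of HSD17B11 under Trenbolone (0.98, adjusted p = 0.0546) and called SRD5A1 there (0.96, adjusted p = 0.0257, against 0.40 as reported), and a trended robust prior that of HSD17B6 under Spironolactone (adjusted p = 0.0524).

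Recovery of known changes was simulated for R1881 against DMSO only, not for 3 arrays against 6. Probes of the AKR1C genes lay near or below the array median in nearly all arrays, which limits what they show.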
